A study of Mus musculus with 12 samples.

Results

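The samples described here are the 6 BALB/c samples of a 12-sample study, 3 wild type and 3 mutant, taken by their strain and genotype labels. The mutants were heterozygous for the C342Y substitution of FGFR2 on a BALB/c background, the mouse model of Crouzon syndrome. Wild type mice of the same strain (replicates 13, 14 and 15) were compared with mutants (replicates 16, 17 and 18) at postnatal day 3. The tissue was frontal bone, taken with the nasal bone and with the coronal and frontonasal sutures, and RNA was sequenced after enzymatic digestion. The study's other 6 samples carry the same genotypes on C57BL/6 and are used here where the genotype effect is compared between strains. The question was which genes differed with genotype on this strain. The labels do not say whether each sample is 1 mouse or a pool, so the p-values measure the spread between these samples.

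Fgfr2 encodes a receptor tyrosine kinase that binds fibroblast growth factors (FGFs) and signals through the ERK pathway in osteoblast precursors of the skull. The Crouzon substitution removes a cysteine that closes an immunoglobulin-like domain, and the freed partner cysteine can bridge receptors without ligand. Crouzon syndrome is known for early fusion of skull sutures and a short midface. Flat skull bones form directly from mesenchyme, and the spaces within them hold marrow, so a bulk extract of this tissue carries RNA of bone, suture, vessel, nerve and blood-forming cells. In such an extract, fewer cells of a type and less RNA per cell cannot be told apart.

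The authors' gene table held 23358 rows, of which 14954 had enough counts to be tested. Gene counts summed to 27.2 M to 34.3 M in wild type and 32.3 M to 46.5 M in mutant samples, and the deposited counts were all even. Levels are given as CPM, counts scaled to a common library size. Bone genes marked the labelled tissue: Spp1, the osteopontin gene, measured 10533 ± 1159.9 CPM in the wild types and 9034 ± 366 CPM in the mutants (mean ± SD, n = 3 each), and Runx2, the osteoblast master regulator, 243 ± 16.2 CPM in the wild types and 285 ± 44.8 CPM in the mutants (mean ± SD, n = 3 each). Log2 levels correlated across genes at 0.983 to 0.991 within a genotype and 0.979 to 0.990 between genotypes. The libraries of replicates 15, 16 and 17 stood apart in marker RNA of other tissues or in sex-linked RNA. Skeletal muscle genes summed to 602 CPM in mutant replicate 16 against 24.9 to 55.6 CPM in the other 5 samples, and glial genes to 1126 CPM against 424 to 719.8 CPM. Cartilage matrix genes summed to 11297 CPM in mutant replicate 17 against 5240.0 to 6203 CPM elsewhere. Y-linked genes had 5530 counts in wild type replicate 15 and 4846 in mutant replicate 16, and at most 8 in the rest, so that each genotype held 1 such sample.

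The genotype effect was modest in size and mostly upward. At an adjusted p under 0.05 (edgeR quasi-likelihood test), 71 genes were called, or 0.475% of those tested: 51 were higher in mutants (0.341%) and 20 lower (0.134%). The called log2 differences ran from 0.28 to 2.00 upward and from -0.36 to -1.23 downward, and 6 genes passed a difference of 1 on the log2 scale. All 71 had mutant and wild type CPM ranges that did not overlap. Over all tested genes the ranges were apart in 10.4% with mutants higher and in 10.4% with mutants lower, and 15.7% had an unadjusted p under 0.05. The median log2 difference over all genes was 0.00024. Of the called genes, 16 of the 51 higher and 6 of the 20 lower belonged to the gene lists described here.

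The count of calls moved with single libraries. It was 5 without wild type replicate 15, 5 without mutant replicate 18, 29 without wild type 13, 43 without mutant 17, 46 without wild type 14 and 94 without mutant 16. All 71 genes kept their sign in each of these 6 fits, while 2 genes, Ermap among them, kept the call in all 6. Kel, Car2 and Ank1 kept it in 5, Igfbp2, Col7a1, Penk and Slc25a37 in 4, Plk1 in 1, and Klf1, Tubb1, Ache, Ngp and Ccna2 in 0. Calls are those of edgeR unless another tool is named. A separate tool, DESeq2, called 542 genes, with all 71 among them, and 1 model of all 12 samples called 22. With summed erythroid RNA as a covariate 1 gene was called and 0 of the 71, where genotype made up 74.4% of the variance of that covariate.

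**Figure D1:**
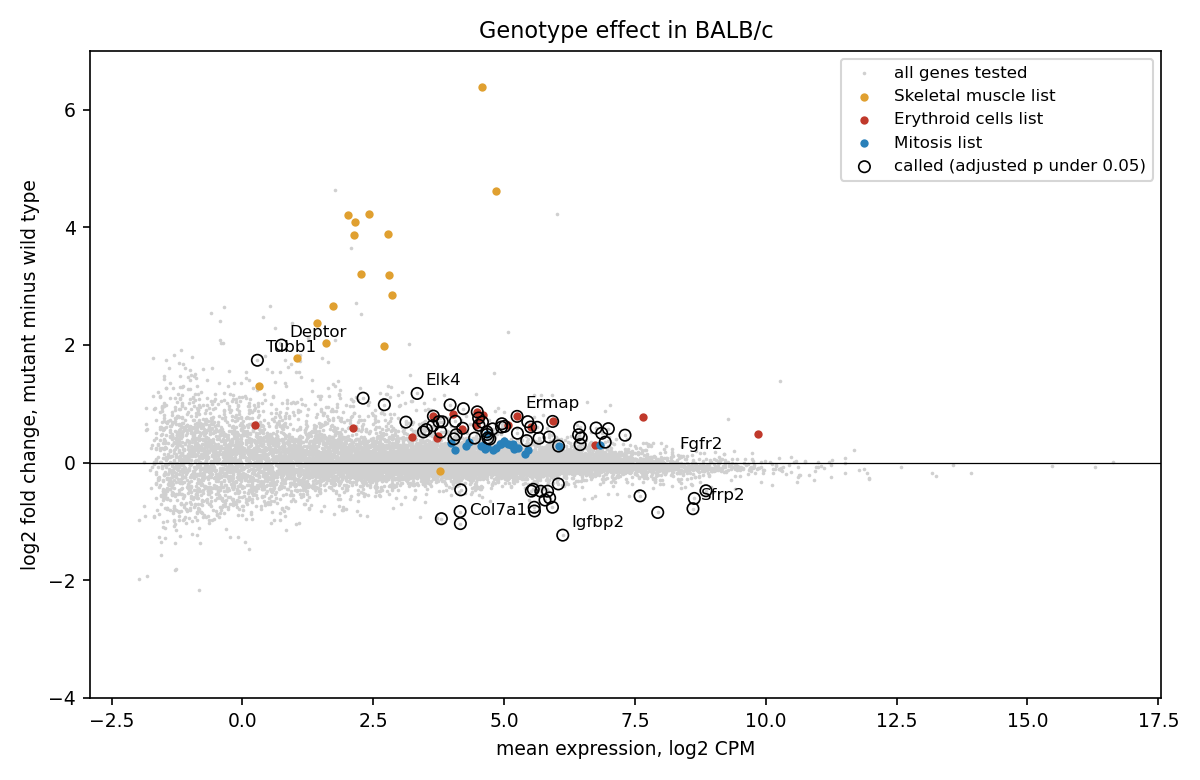
Log2 fold change (mutant minus wild type, vertical axis) against mean expression in log2 CPM (horizontal axis) for the 14954 genes tested in the 6 BALB/c samples. Circles mark the 71 called genes, 51 above and 20 below zero; skeletal muscle genes (orange) reach the largest differences without being called, erythroid genes (red) lie above zero, and mitosis genes (blue) form a narrow band above zero.

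Fgfr2 itself (chromosome 7, 130162451 to 130266808), counted over both alleles, was not called. Its level was 269.5, 288 and 289.8 CPM in the wild types and 272, 311 and 319 CPM in the mutants, and the groups overlapped. The log2 difference was 0.090 (SE 0.0701, adjusted p 0.581). In the receptor list 0 of 6 tested members were called by edgeR, DESeq2 or limma-voom, and 0 had an unadjusted p under 0.05. Fgfr1 measured 480.2 ± 30.6 CPM in the wild types and 497 ± 27.4 CPM in the mutants (mean ± SD, n = 3 each), a log2 difference of 0.050 (SE 0.0665, adjusted p 0.769).

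Among 11 tested FGF ligands 0 were called by edgeR, DESeq2 or limma-voom, and the list's median log2 difference was -0.19. An unadjusted p under 0.05 was found for 2, both lower, where 15.7% of all genes had 1 in either direction. The members with the smallest p were Fgf18, an osteogenic ligand of the sutures, at 5.27, 7.18 and 4.50 CPM in the wild types and 3.72, 4.10 and 2.96 CPM in the mutants (log2 -0.65, adjusted p 0.186), and Fgf1, at log2 -0.19 (adjusted p 0.247). Both had non-overlapping ranges with mutants lower. Of 18 genes for ERK feedback and ETS targets, 0 were called by edgeR or limma-voom and 1 by DESeq2, and the median was 0.028. In this list 4 had an unadjusted p under 0.05, 2 higher and 2 lower, against the same 15.7% of all genes. Ccnd1, the cyclin D1 gene and a growth factor target, came closest, at 99.6, 88.1 and 108 CPM in the wild types and 80.7, 75.9 and 81.1 CPM in the mutants (log2 -0.32, adjusted p 0.0999), and Dusp4, an ERK phosphatase, had a log2 difference of 0.45 (adjusted p 0.169) with overlapping ranges.

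The erythroid list had more calls than any other list. Of 19 tested erythroid genes, 6 were called higher and 0 lower, 18 had an unadjusted p under 0.05 with mutants higher (against 8.89% of all genes), and the list's median log2 difference was 0.63. Leaving out 1 library at a time left 2 to 5 of the 6 calls and 17 or 18 of the unadjusted ones. Summed erythroid RNA was 1411, 1419.7 and 1038 CPM in the wild types and 2041, 1724 and 1905 CPM in the mutants. Each mutant sample lay above each wild type sample in that sum. The beta-globin gene Hbb-bs, named Beta-s in the table, took much of it, at 839.5, 905 and 571 CPM in the wild types and 1176, 963 and 1102 CPM in the mutants, and was not called (log2 0.49, adjusted p 0.169). The alpha-globin copies Hba-a1 and Hba-a2 are near-identical, so reads may have been split between them, and they are not named as separate results.

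The called erythroid members code for the red cell surface, its membrane skeleton and an erythroid regulator. Ermap (chromosome 4, 119175457 to 119190011), an erythroblast membrane protein, rose from 27.2, 27.2 and 28.9 CPM in the wild types to 49.6, 45.0 and 49.1 CPM in the mutants. Its log2 difference was 0.78 (SE 0.0626, adjusted p 0.00476), the smallest p of all genes. Kel (chromosome 6, 41686330 to 41704325), the Kell blood group endopeptidase, stood at 18.6, 16.8 and 15.4 CPM in the wild types and 28.6, 28.0 and 29.0 CPM in the mutants, a log2 difference of 0.76 (SE 0.0781, adjusted p 0.00933). Rhd (chromosome 4, 134864536 to 134896172), the Rhesus blood group gene, stood at 18.7, 14.2 and 14.7 CPM in the wild types and 31.8, 27.9 and 26.6 CPM in the mutants, a log2 difference of 0.86 (SE 0.111, adjusted p 0.0177). In these 3 genes each mutant sample lay above every wild type sample.

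Ank1 and Spnb1, of the membrane skeleton, rose as well. Ank1, erythroid ankyrin, went from 36.0 ± 1.82 to 54.7 ± 2.57 CPM (SD, n = 3 each), log2 0.60 (adjusted p 0.00933), and Spnb1, an older symbol of the beta-spectrin gene Sptb, from 46.3 ± 6.80 to 75.2 ± 6.38 CPM (SD, n = 3 each), log2 0.70 (adjusted p 0.0295). Ank1 overlaps the microRNA genes Mir3107 and Mir486 in the table. Klf1, the transcription factor that switches on adult globin and many red cell genes, rose from 9.10 ± 1.55 to 15.7 ± 1.73 CPM (SD, n = 3 each), log2 0.79 (SE 0.132, adjusted p 0.0431). Rhag, the Rh-associated glycoprotein gene, missed the threshold at log2 0.57 (adjusted p 0.0584) and passed it in DESeq2.

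Because 6 red cell genes were called in the same direction, promoters of 4 of them, those with the motif before the start, are shown. Erythroid genes are classically bound by the factor GATA1, and the letters searched on both strands were AGATAA as well as AGATAG, each also with T as its first letter. The window ran from 250 bases before to 50 bases after the RefSeq start of a gene (build GRCm38.p6), 5′ to 3′ along the gene, with the motif in capitals as it reads on the gene's strand:

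Ermap, chr4:119189946-119190245 (- strand): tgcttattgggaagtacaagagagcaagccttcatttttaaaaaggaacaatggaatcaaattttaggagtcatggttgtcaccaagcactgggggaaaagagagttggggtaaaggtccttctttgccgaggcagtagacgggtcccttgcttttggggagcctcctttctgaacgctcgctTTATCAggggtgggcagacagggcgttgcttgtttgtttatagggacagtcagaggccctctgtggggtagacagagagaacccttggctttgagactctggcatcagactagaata

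Kel, chr6:41704276-41704575 (- strand): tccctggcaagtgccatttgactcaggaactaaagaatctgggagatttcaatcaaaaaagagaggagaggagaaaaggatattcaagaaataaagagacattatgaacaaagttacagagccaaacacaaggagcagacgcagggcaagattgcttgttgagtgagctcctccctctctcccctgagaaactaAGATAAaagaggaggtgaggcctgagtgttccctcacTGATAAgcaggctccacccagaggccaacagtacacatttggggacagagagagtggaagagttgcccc

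Rhd, chr4:134864286-134864585 (+ strand): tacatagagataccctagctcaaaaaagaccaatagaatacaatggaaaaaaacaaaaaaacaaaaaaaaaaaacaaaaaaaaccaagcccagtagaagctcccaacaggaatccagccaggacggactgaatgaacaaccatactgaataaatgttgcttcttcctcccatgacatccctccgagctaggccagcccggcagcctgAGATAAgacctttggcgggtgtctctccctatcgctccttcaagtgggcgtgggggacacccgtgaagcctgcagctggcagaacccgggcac

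Klf1, chr8:84901732-84902031 (+ strand): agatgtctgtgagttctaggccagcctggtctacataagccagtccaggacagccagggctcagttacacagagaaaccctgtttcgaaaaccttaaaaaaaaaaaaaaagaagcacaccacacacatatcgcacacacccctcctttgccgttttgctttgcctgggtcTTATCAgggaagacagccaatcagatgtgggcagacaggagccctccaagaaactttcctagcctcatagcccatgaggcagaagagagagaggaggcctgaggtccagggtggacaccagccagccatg

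Counted from the start of the gene, the motif began at -67 in Ermap, at -56 and -19 in Kel, at -43 in Rhd and at -80 in Klf1. In Sptb it began after the start, at 13, and Ank1 was not matched to a window. Of 14 tested erythroid genes with a window, 11 held the motif (78.6%), against 18.7% of the 10537 tested genes with a window and 30.2% of all 27025 promoters. Among all called genes, 7 of 35 windows of higher genes and 2 of 14 of lower genes held it. A match describes letters in a window and was not measured as binding.

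Genes of heme synthesis, the pathway that makes the pigment of hemoglobin, had 2 of 13 tested members called, both higher. Slc25a37, mitoferrin-1, imports iron into mitochondria of red cell precursors and stood at 89.7, 89.2 and 80.2 CPM in the wild types and 137, 118 and 135 CPM in the mutants, a log2 difference of 0.59 (SE 0.0711, adjusted p 0.0125). Abcb10, a mitochondrial transporter needed for heme production, rose from 22.0 ± 1.86 to 32.7 ± 2.01 CPM (SD, n = 3 each), log2 0.57 (adjusted p 0.0237). A total of 10 members had an unadjusted p under 0.05, all higher, and the median was 0.27.

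Further genes that rose are expressed in red cells or platelets as well as elsewhere. Car2, carbonic anhydrase 2, is abundant in red cells and in bone-resorbing osteoclasts, and stood at 98.5, 92.3 and 98.9 CPM in the wild types and 136, 137 and 135 CPM in the mutants, a log2 difference of 0.50 (SE 0.0505, adjusted p 0.00933). It was the 1 called gene among 15 osteoclast genes, whose median log2 difference was 0.043. Ache, acetylcholinesterase, which sits at nerve-muscle junctions and on red cells, rose from 4.34 ± 0.775 to 8.56 ± 1.20 CPM (SD, n = 3 each), log2 0.98 (adjusted p 0.0465). Tubb1, the beta-tubulin of platelets, rose from 0.517 ± 0.0454 to 1.74 ± 0.394 CPM (SD, n = 3 each), log2 1.74 (adjusted p 0.0431), at a low level. Slc30a10, a manganese exporter, rose from 3.06 ± 0.438 to 6.54 ± 1.13 CPM (SD, n = 3 each), log2 1.09 (adjusted p 0.0431), and overlaps the predicted gene Gm2061.

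White cell and platelet lists had mostly positive differences and few calls. Of 14 tested B cell genes, 1 was called by edgeR, higher in mutants, and all 14 had a positive difference, with a median of 0.69. In that list 11 had an unadjusted p under 0.05, all higher, against 8.89% of all genes. Vpreb3, part of the surrogate light chain family, had log2 1.03 (adjusted p 0.0586), and Cd79a, a B cell receptor subunit, had log2 0.76 (adjusted p 0.0716), neither of them called by edgeR and both by DESeq2. The B cell genes summed to 66.9, 71.7 and 63.2 CPM in the wild types and 122, 95.9 and 109 CPM in the mutants.

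Ngp, a neutrophil granule protein, stood at 113, 102 and 107 CPM in the wild types and 142, 129.8 and 138 CPM in the mutants, a log2 difference of 0.35 (SE 0.0598, adjusted p 0.0467). It was the 1 called gene of 14 neutrophil granule genes, all 14 of which had positive differences, with a median of 0.37. The list summed to 698, 603 and 707 CPM in the wild types and 921, 856 and 848 CPM in the mutants. Of 11 megakaryocyte genes 0 were called (3 by DESeq2), 7 had an unadjusted p under 0.05 with mutants higher, and Gp1ba, a platelet adhesion receptor subunit, had a log2 difference of 0.79 (adjusted p 0.0846). The megakaryocyte list summed to 113, 96.4 and 106 CPM in the wild types and 149, 94.0 and 98.2 CPM in the mutants, and these ranges overlapped.

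Macrophage and endothelial genes had medians near zero. The macrophage genes had 0 of 13 called by edgeR, DESeq2 or limma-voom, 1 with an unadjusted p under 0.05 and a median log2 difference of -0.005, and summed to 587, 657 and 649 CPM in the wild types and 617, 641 and 656 CPM in the mutants. The endothelial genes had 0 of 12 called by the same 3 tools, 2 with an unadjusted p under 0.05 and a median of -0.002. Both sums overlapped between genotypes.

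**Figure D2:**
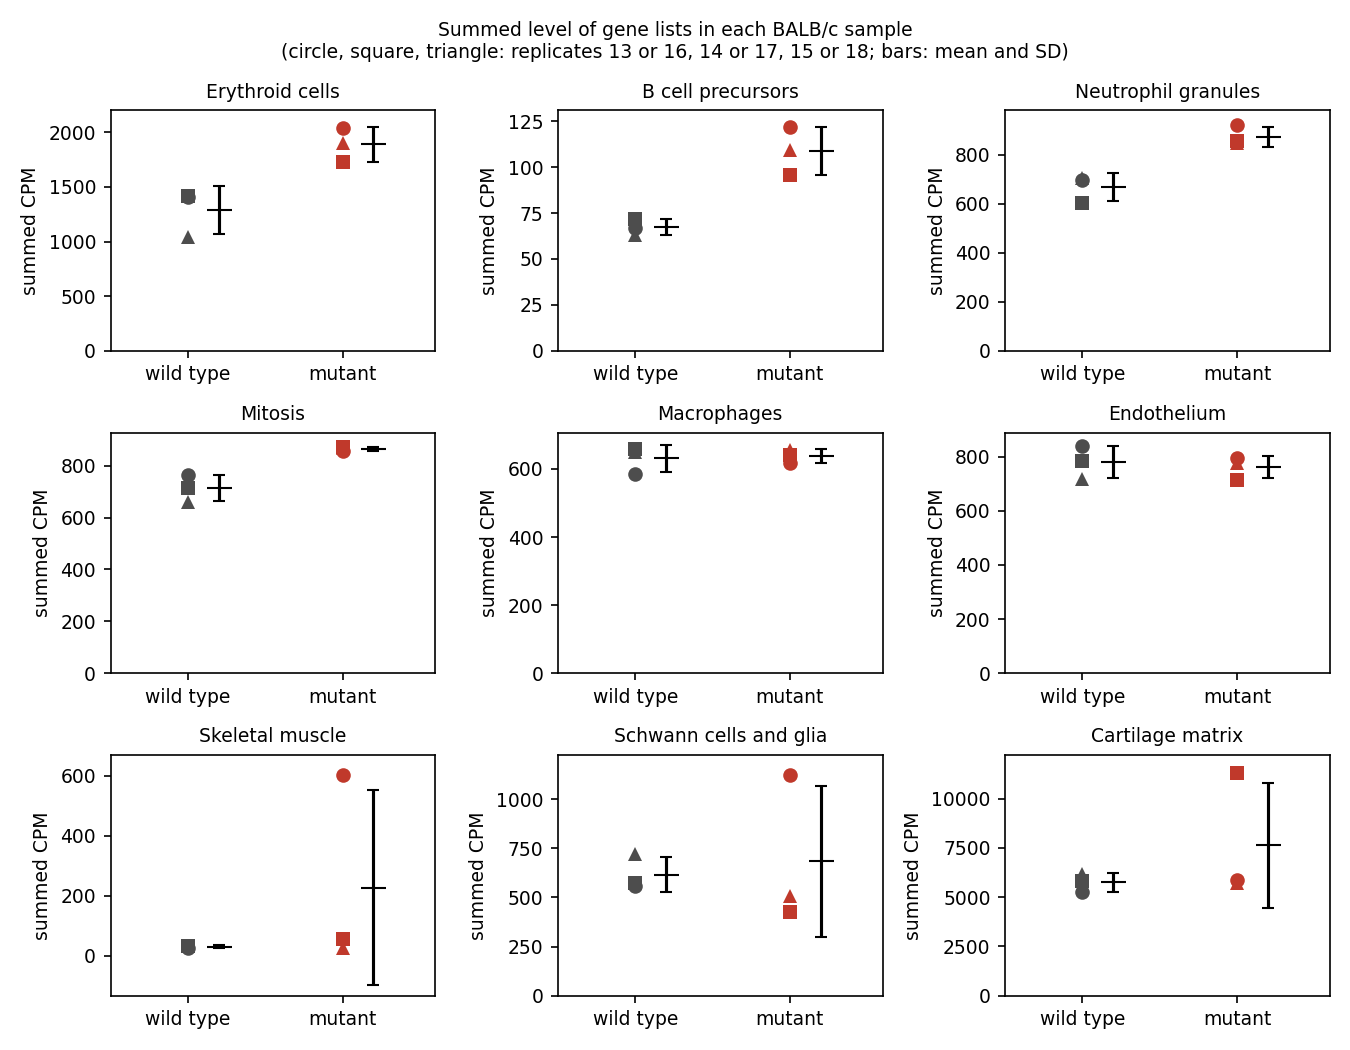
Summed CPM (vertical axes, from 0 or below) of the genes of 9 lists in each BALB/c sample, with the mean and SD of each genotype beside the points. Erythroid, B cell, neutrophil and mitosis sums of all 3 mutants lie above all wild types; macrophage and endothelial sums overlap; 1 mutant (replicate 16) sets the muscle and glial values, and another (replicate 17) the cartilage values.

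Genes of cell division had higher values throughout their list, by small amounts. Of 23 tested mitosis genes, 2 were called, all 23 had an unadjusted p under 0.05 and all 23 had ranges that did not overlap, against 8.89% and 10.4% of all genes in that direction. Their median log2 difference was 0.28, and the sum was 764, 715 and 662 CPM in the wild types and 857, 872 and 867 CPM in the mutants. Plk1 (chromosome 7, 122159437 to 122169875), the polo-like kinase that drives entry into mitosis, stood at 22.6, 21.6 and 19.6 CPM in the wild types and 29.9, 29.2 and 29.6 CPM in the mutants, a log2 difference of 0.48 (SE 0.0698, adjusted p 0.0274). Ccna2, cyclin A2, stood at 59.4, 59.7 and 58.9 CPM in the wild types and 70.6, 74.1 and 71.5 CPM in the mutants, a log2 difference of 0.28 (SE 0.0488, adjusted p 0.0483), and overlaps Exosc9. These calls did not survive most omissions of a library: 0 or 1 mitosis genes were called in the 6 fits, while 18 to 23 kept an unadjusted p under 0.05.

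In DNA replication, 1 of 25 tested genes was called. E2f2, a transcription factor of the S phase, rose from 39.4 ± 2.88 to 59.7 ± 8.01 CPM (SD, n = 3 each), log2 0.60 (SE 0.0960, adjusted p 0.0372). A further 10 had an unadjusted p under 0.05, all higher, and E2f8 missed the threshold at log2 0.41 (adjusted p 0.0605) and passed it in DESeq2. The erythroid sums given here were also higher in all 3 mutants, and which cells the division genes came from was not tested.

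Promoters of mitosis genes often hold the cell cycle homology region TTTGAA, together with CCAAT boxes. In the same window the Plk1 promoter read as follows, with TTTGAA in capitals, beginning at 31 after the start:

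Plk1, chr7:122159185-122159484 (+ strand): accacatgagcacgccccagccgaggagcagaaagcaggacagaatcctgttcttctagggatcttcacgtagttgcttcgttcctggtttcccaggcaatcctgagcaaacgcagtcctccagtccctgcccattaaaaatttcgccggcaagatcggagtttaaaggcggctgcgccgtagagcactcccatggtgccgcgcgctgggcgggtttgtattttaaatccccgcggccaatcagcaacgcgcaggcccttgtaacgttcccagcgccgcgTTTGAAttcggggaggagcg

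Of 19 mitosis genes with a window, 15 held TTTGAA on either strand (78.9%), against 11.9% of tested genes and 18.2% of all promoters, and 17 held CCAAT (89.5%), against 38.4% and 38.0%. Among called higher genes 3 of 35 windows held TTTGAA.

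**Figure D3:**
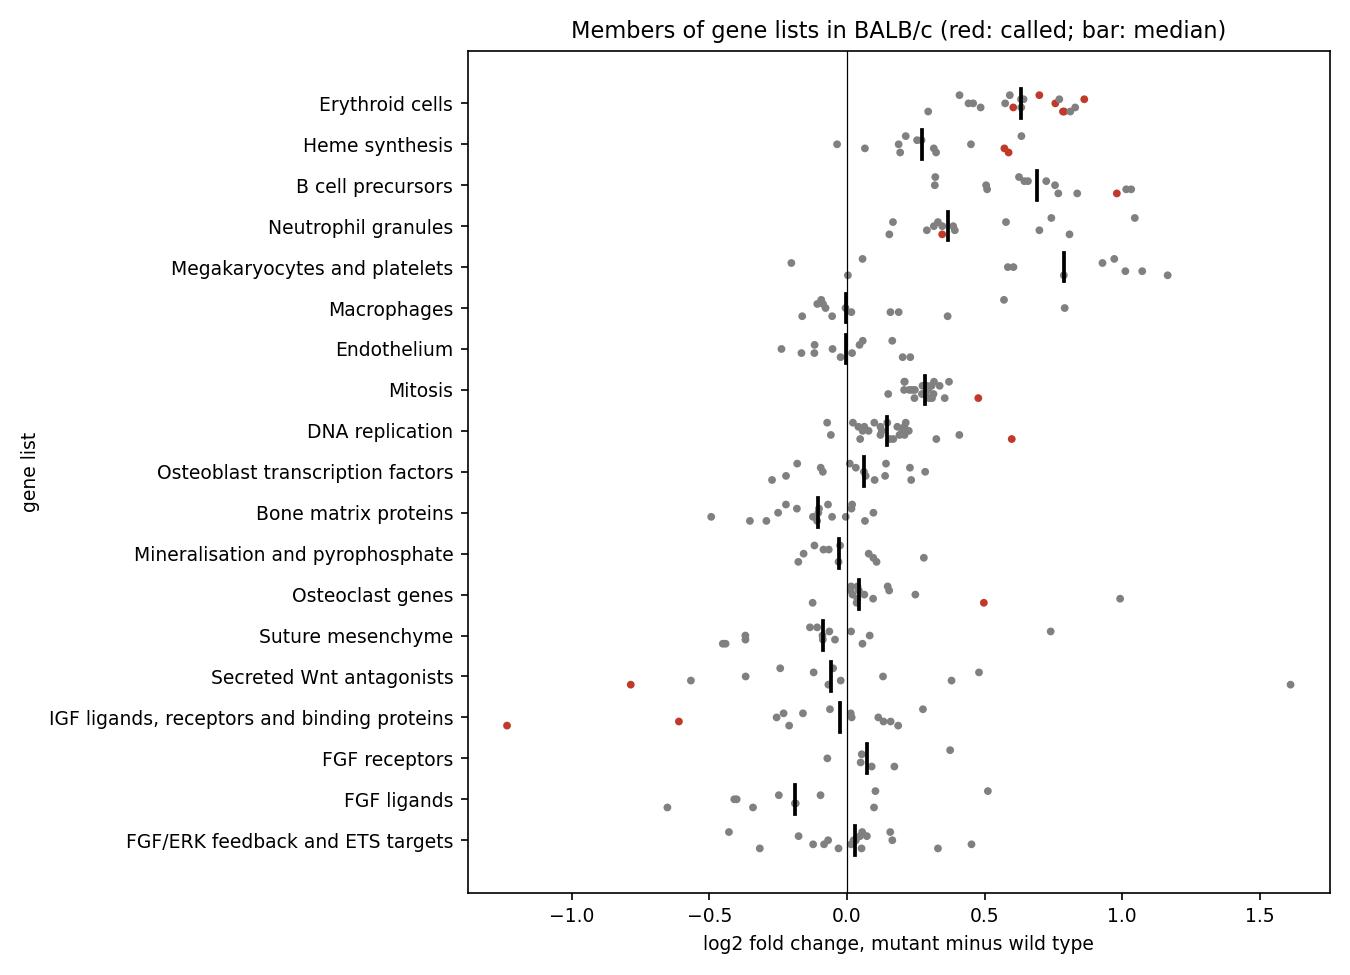
Log2 fold change (horizontal axis, mutant minus wild type) of each tested member of 19 gene lists (vertical axis), with called members in red and the list median as a bar. Erythroid and B cell medians stand at 0.63 and 0.69 and mitosis at 0.28, while macrophages, endothelium and the bone lists lie within 0.11 of zero.

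Igfbp2 and Igfbp3 fell. They code for secreted proteins that hold insulin-like growth factors (IGFs) and set how much reaches the receptor. Igfbp2 (chromosome 1, 72824480 to 72852471) stood at 113, 89.0 and 91.5 CPM in the wild types and 34.4, 50.5 and 39.5 CPM in the mutants, a log2 difference of -1.23 (SE 0.137, adjusted p 0.0112), the largest fall among the called genes. Igfbp3 (chromosome 11, 7206091 to 7213923) stood at 433, 470.1 and 537 CPM in the wild types and 277, 351 and 316 CPM in the mutants, a log2 difference of -0.61 (SE 0.0995, adjusted p 0.0396). In both, the highest mutant lay below the lowest wild type. They were the 2 called members of 14 tested IGF genes in edgeR, and DESeq2 called 3, all lower. Igf2, the fetal growth factor, had 4392, 4027 and 4707 CPM in the wild types and 3450.2, 4009 and 3538 CPM in the mutants, a log2 difference of -0.26 (adjusted p 0.156) that was not called by edgeR but was called lower by DESeq2 (adjusted p 0.0164), and Igf1 had log2 0.13 (adjusted p 0.388) with overlapping ranges.

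The called lower genes included the collagen genes Col7a1 and Col8a1. Col7a1 (chromosome 9, 108953745 to 108984875), the collagen of anchoring fibrils beneath epithelia, stood at 27.2, 20.6 and 24.8 CPM in the wild types and 10.7, 13.2 and 11.3 CPM in the mutants, a log2 difference of -1.04 (SE 0.116, adjusted p 0.0112), and overlaps Mir711. It was the 1 called gene among 21 of basement membranes, 12 of which had a positive difference, and Lamc1, a laminin chain, had log2 0.34 (adjusted p 0.0811) in the other direction, called by DESeq2 alone of the 3 tools. Col8a1 (chromosome 16, 57624256 to 57754737), a short-chain collagen of vessel walls and connective tissue, stood at 312, 315 and 317 CPM in the wild types and 141, 203 and 180.2 CPM in the mutants, a log2 difference of -0.85 (SE 0.112, adjusted p 0.0184). The wild type values of Col8a1 hardly varied, and the mutants were spread below them.

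Cdh3, P-cadherin, fell from 18.4 ± 2.15 to 9.48 ± 1.32 CPM (SD, n = 3 each), log2 -0.95 (adjusted p 0.0133). Alcam, an adhesion protein of the immunoglobulin family, fell from 60.0 ± 6.92 to 35.3 ± 6.68 CPM (SD, n = 3 each), log2 -0.76 (adjusted p 0.0467). Cpxm2, a secreted protein of the carboxypeptidase family, fell from 76.4 ± 12.2 to 45.0 ± 5.38 CPM (SD, n = 3 each), log2 -0.76 (adjusted p 0.0334), and Megf6, with many EGF repeats, from 231 ± 25.8 to 156 ± 10.6 CPM (SD, n = 3 each), log2 -0.57 (adjusted p 0.0319). Ptx3, a pentraxin of innate immunity and matrix, fell from 70.5 ± 5.97 to 46.4 ± 4.28 CPM (SD, n = 3 each), log2 -0.60 (adjusted p 0.0223), and overlaps Veph1.

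Sfrp2 (chromosome 3, 83766321 to 83774314), a secreted protein that binds Wnt ligands, stood at 506, 424 and 551 CPM in the wild types and 242, 305 and 312 CPM in the mutants, a log2 difference of -0.79 (SE 0.115, adjusted p 0.0274). It was the 1 called gene of 12 secreted Wnt antagonists in edgeR (2, both lower, in DESeq2), of which 8 had a negative difference. The list summed to 1492, 1291 and 1577 CPM in the wild types and 1033, 1150.3 and 1139 CPM in the mutants, lower in all 3 mutants. Sost, the osteocyte antagonist sclerostin, had 151, 96.4 and 136 CPM in the wild types and 76.8, 94.2 and 88.1 CPM in the mutants and log2 -0.57 (adjusted p 0.118), with ranges that did not overlap. Sfrp4, of the same family as Sfrp2, had a positive difference of 0.48 (adjusted p 0.188) with overlapping ranges.

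The neuropeptide precursor genes Penk and Tac1 also fell. Penk (chromosome 4, 4133536 to 4138445), the enkephalin precursor, which is also made by mesenchyme of developing bone, stood at 61.9, 61.1 and 60.4 CPM in the wild types and 38.0, 37.2 and 28.4 CPM in the mutants, a log2 difference of -0.82 (SE 0.0984, adjusted p 0.0125). Tac1, the substance P precursor, stood at 25.3, 19.1 and 24.4 CPM in the wild types and 10.2, 14.2 and 14.1 CPM in the mutants, a log2 difference of -0.83 (SE 0.142, adjusted p 0.0439). They were the 2 called of 6 tested genes in a list of neuropeptides and opioid receptors, of which 7 more fell short of the count filter. Of the tested 6, 3 had non-overlapping ranges with mutants lower and 2 with mutants higher. Over all genes, 0.134% were called lower, and 10.4% had ranges apart in each direction.

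Genes of other kinds rose too. The 35 of the 51 called higher genes that belonged to no list included blood cell and division genes such as Myb, Ikzf1, Hemgn and Mki67. Deptor and Elk4, described next, were list members. Deptor (chromosome 15, 55112483 to 55254202), an inhibitor of mTOR kinase complexes, had the largest rise of the called genes. It went from 0.615 ± 0.221 to 2.48 ± 0.646 CPM (SD, n = 3 each), log2 2.00 (SE 0.320, adjusted p 0.0372). Its wild type level was near the count filter, and it overlaps the predicted gene Gm9920. Of the other 11 genes of the mTOR complexes 0 were called, and Mtor had log2 0.25 (adjusted p 0.234). Elk4, an ETS factor that partners the serum response factor SRF, stood at 5.94, 6.62 and 5.79 CPM in the wild types and 10.5, 12.2 and 18.7 CPM in the mutants, log2 1.17 (SE 0.196, adjusted p 0.0431). Limma-voom called none of Deptor, Elk4 and Tubb1. The other 18 SRF cofactors and immediate early genes had 0 calls, and Fos had log2 -0.18 (adjusted p 0.186). Slc9a2, a sodium-proton exchanger, rose from 12.8 ± 1.79 to 24.2 ± 3.17 CPM (SD, n = 3 each), log2 0.92 (adjusted p 0.0183), and Gfra1, a co-receptor of the nerve growth factor GDNF, from 12.7 ± 1.73 to 20.6 ± 0.827 CPM (SD, n = 3 each), log2 0.70 (adjusted p 0.0264). Gfra1 overlaps Gm10007 and Snora19.

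**Figure D4:**
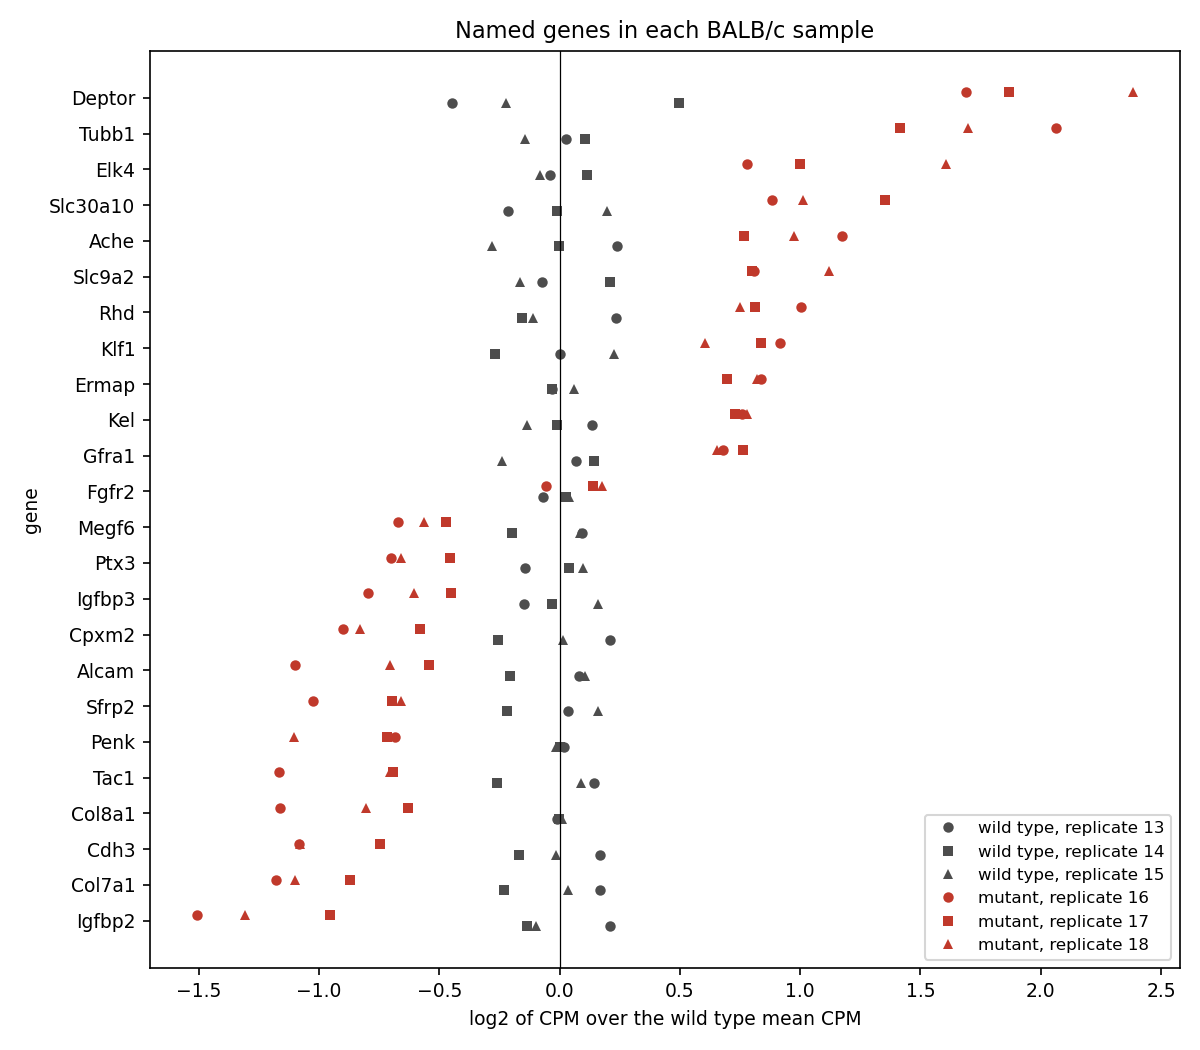
Log2 of each sample's CPM over the wild type mean (horizontal axis) for Fgfr2 and 23 genes chosen by size of change (vertical axis), with wild type in grey and mutants in red. For the 23 called genes no red point lies among the grey ones, from Deptor at the top to Igfbp2 at the bottom, while for Fgfr2 the points mix.

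The lists of bone-forming cells had 0 calls in edgeR. Of 15 osteoblast transcription factors 0 were called (1, lower, by DESeq2), 3 had an unadjusted p under 0.05, and Runx2 stood at 229, 261 and 239.8 CPM in the wild types and 236, 298 and 322 CPM in the mutants (log2 0.23, adjusted p 0.337), with overlapping ranges. Of 17 bone matrix genes 0 were called, while limma-voom called 1 and DESeq2 3, all lower. In that list 6 had an unadjusted p under 0.05, all lower, against 6.81% of all genes, and the median was -0.10. Ogn, osteoglycin, came closest at 379, 382 and 363 CPM in the wild types and 292, 315 and 273 CPM in the mutants (log2 -0.35, adjusted p 0.0584), followed by Fmod, fibromodulin, at log2 -0.49 (adjusted p 0.121).

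The 9 osteocyte genes all had negative differences with 0 calls (1 by DESeq2) and 2 unadjusted p under 0.05, led by Pdpn, podoplanin, at 54.9, 53.2 and 54.7 CPM in the wild types and 41.4, 46.1 and 44.5 CPM in the mutants (log2 -0.30, adjusted p 0.0586). Among 14 genes of suture mesenchyme, the population that feeds bone growth, 0 were called (3, lower, by DESeq2) and 10 were negative. An unadjusted p under 0.05 was found for 6, of which 5 were lower and 1 higher, against 6.81% and 8.89% of all genes. Erg, an ETS factor, had 54.2, 44.0 and 46.8 CPM in the wild types and 33.8, 37.2 and 35.7 CPM in the mutants (log2 -0.44, adjusted p 0.0584) and Prrx2, a mesenchymal homeobox gene, log2 -0.37 (adjusted p 0.126). The mineralisation genes had 0 of 11 called by edgeR, DESeq2 or limma-voom and 2 with an unadjusted p under 0.05, with Alpl, alkaline phosphatase, at log2 -0.085 (adjusted p 0.522).

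Muscle and cartilage sums were each highest in a single mutant sample. Summed muscle RNA was 602 CPM in mutant 16, 55.6 CPM in mutant 17 and 25.0 CPM in mutant 18, against 24.9 to 34.4 CPM in the wild types. In 17 tested skeletal muscle genes the median log2 difference was 3.19 with 0 called (1 by DESeq2) and 0 non-overlapping. A total of 14 had an unadjusted p under 0.05 in edgeR and 0 in limma-voom. Myh8, the perinatal myosin, stood at 0.301, 0.743 and 0.585 CPM in the wild types and 135, 6.25 and 0.345 CPM in the mutants. Without mutant replicate 16 the list median was 0.43. Col2a1, the main cartilage collagen, stood at 248, 648 and 1153 CPM in the wild types and 883, 3812 and 669 CPM in the mutants, and mutant replicate 17 was the high one. Of 13 tested cartilage matrix genes 0 were called by edgeR and 11 had a positive difference, with a median of 0.88. In that list 1 gene had non-overlapping ranges with mutants higher, against 10.4% of all genes. The medians of 10 Schwann cell and glial genes and of 7 adipocyte genes were 1.15 and 1.40, with 0 called by edgeR (1 Schwann cell gene, lower, by DESeq2), and -0.35 and 0.32 without mutant replicate 16.

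The same genotypes on C57BL/6 gave most of the higher genes the opposite sign. In 1 model of all 12 samples, 41 of the 51 genes called higher in BALB/c had a lower estimate in C57BL/6 mutants, and 32 were called lower there, where 12.6% of all genes were. Another 6 of the 51 were called higher there, against 11.3% of all genes, and 23.9% of all genes were called in either direction. The median of the 51 was 0.60 in BALB/c and -0.78 in C57BL/6. Of the 20 genes called lower, 14 had the same sign in C57BL/6, 11 were called lower there and 2 were called higher. The run identifiers in the labels differ between the strains, so strain and run cannot be told apart, while each genotype effect lies within 1 run. The difference between strains itself was called for 43 of the 51, all toward a higher value in BALB/c (5.46% of all genes), and for 5 of the 20, all toward a lower one (4.58% of all genes). Since the genes were picked on their BALB/c values, these 2 counts are no independent evidence.

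Red cell genes carried wide gaps between strains. For Ermap the C57BL/6 log2 difference was -1.81 and the gap, BALB/c minus C57BL/6, 2.60 (SE 0.174, adjusted p 4.19e-05). For Klf1 the C57BL/6 value was -2.51 and the gap 3.30 (SE 0.279, adjusted p 0.000119), and for Plk1 -0.78 and 1.25 (SE 0.0917, adjusted p 5.23e-05). Other genes had like estimates in both strains: Igfbp2 had -1.23 in C57BL/6 with a gap of -0.0056 (SE 0.301, adjusted p 0.998), and Slc9a2 0.91 with a gap of 0.0075 (SE 0.193, adjusted p 0.99). Fgfr2 had 0.54 in C57BL/6, with a gap of -0.45 (SE 0.141, adjusted p 0.0638) that missed the threshold. Igfbp3, which fell in BALB/c, had a C57BL/6 difference of 0.00053, but its gap of -0.61 (SE 0.234, adjusted p 0.11) was not called.

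**Figure D5:**
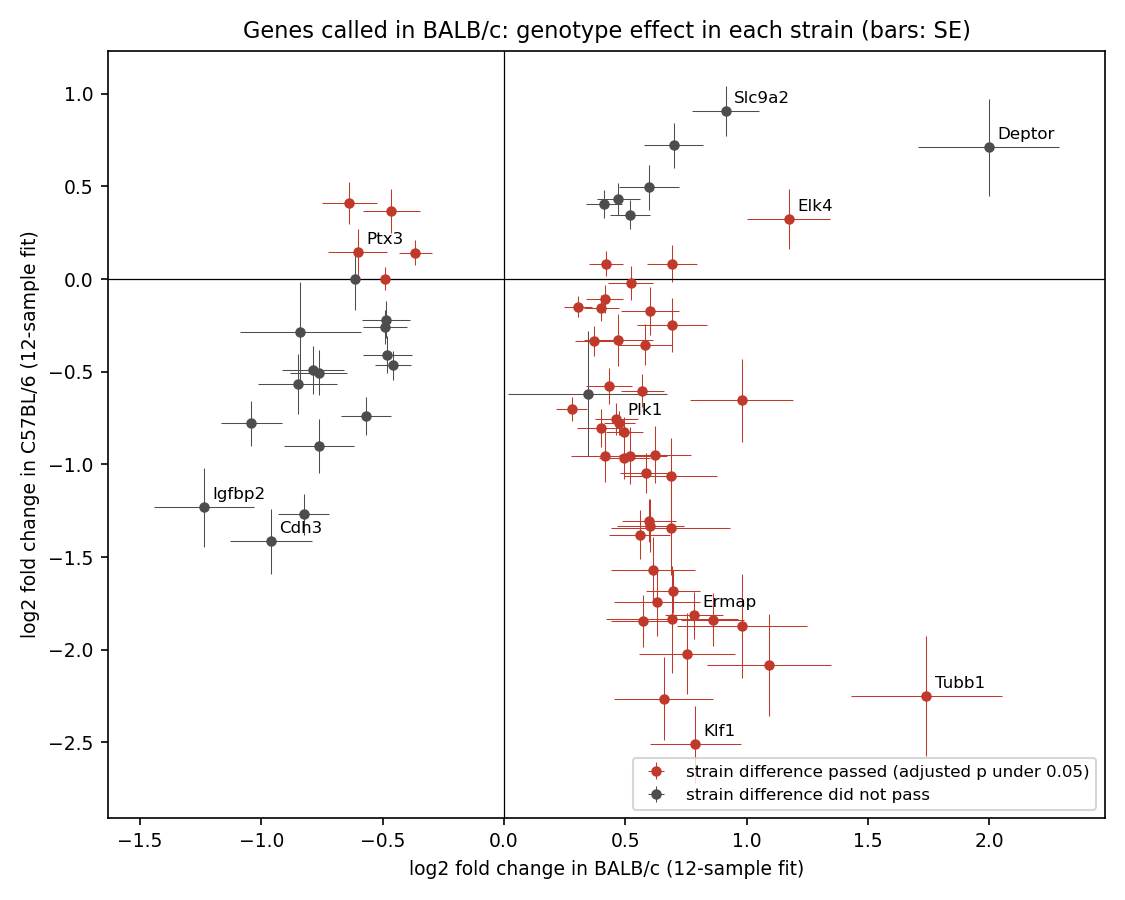
Genotype effect (log2 fold change, mutant minus wild type) of the 71 genes called in BALB/c, with the BALB/c value on the horizontal and the C57BL/6 value on the vertical axis, both from the 12-sample model; bars are SE. Red points mark the 48 genes whose difference between strains passed the test, most of them to the lower right, and grey points the rest, which lie mostly at lower left and upper right.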

How the data were processed

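RNA-seq of 6 BALB/c samples was compared by genotype, 3 against 3, grouped by their labels. The authors deposited raw gene counts. The submitters' processing notes name bcl2fastq, TopHat2 2.0.6, HTSeq, DESeq2 and build mm10, without giving roles. Strand setting, filters and annotation are not given in the sources used here, so reads of overlapping genes cannot be told apart. RPKM values, also deposited by the authors, were not used. The authors' deposited log2 fold changes and p-values or q-values were used for 1 comparison of calls.

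The deposited counts were tested in edgeR 4.0.16 (R 4.3.3; quasi-likelihood test, TMM, filterByExpr with minimum count 10 and minimum total count 15), with Benjamini-Hochberg adjustment over 14954 genes and calls at 0.05. CPM used TMM-scaled totals. The effect in C57BL/6 and the difference between strains came from 1 model of all 12 samples. SE is the one implied by the F statistic. Libraries held 27.2 M to 46.5 M counts, and replicates differed beyond sampling noise. Scripts were tested on simulated data.

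Named genes were Fgfr2, up to 12 called genes per direction with the largest change, a mean of at least 1 CPM and non-overlapping ranges (Gm, Rik, LOC, Mir and Snor names skipped), called list members, and the 2 list members with the smallest p; some genes that meet this rule are not reported here. The 44 lists had 658 members, 653 matched and 587 tested. Members and lists were chosen with earlier results of these data known. The 69 rows that share 26 identifiers are not named. Alternatives were DESeq2 1.42.0, limma-voom (limma 3.58.1), other scalings and filters, halved counts, covariates for Y-linked, muscle or erythroid RNA, and omission of each replicate. Promoters are from RefSeq (GRCm38.p6), 1 window per gene.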

Additional observations from a re-analysis of the deposited data

Results flagged for a closer look

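For 17 of the 33 genes taken by the naming rule, the genotype effect differed between strains in a test of the difference itself. The test was edgeR, BALB/c minus C57BL/6, on the log2 scale, adjusted over all genes, with 6 samples per strain. Over all genes, that difference was called upward in 5.46% and downward in 4.58%. These genes were named by their BALB/c values, so the count of 17 is no independent evidence. Strain and sequencing run cannot be told apart in these values. Of the red cell and heme genes, the gap was Klf1 3.30 (adjusted p 0.000119), Kel 2.77 (adjusted p 0.000408), Rhd 2.70 (adjusted p 5.08e-05), Ermap 2.60 (adjusted p 4.19e-05), Spnb1 2.38 (adjusted p 4.19e-05), Ank1 1.93 (adjusted p 0.000376), Slc25a37 1.63 (adjusted p 0.000206) and Abcb10 1.17 (adjusted p 0.000408). Genes also expressed in red cells or platelets had gaps of Tubb1 3.99 (adjusted p 0.000659), Ache 2.85 (adjusted p 0.00209) and Car2 1.32 (adjusted p 0.000109). The manganese exporter gene had a gap in the same direction, Slc30a10 3.17 (adjusted p 0.000942). Division genes had gaps of E2f2 1.90 (adjusted p 0.000119), Plk1 1.25 (adjusted p 5.23e-05) and Ccna2 0.98 (adjusted p 0.000206). The SRF partner Elk4 0.85 (adjusted p 0.0428) was higher in mutants of both strains by estimate, and more so in BALB/c. The gap of Ptx3 -0.75 (adjusted p 0.0243) was the negative one, with the gene lower in BALB/c mutants. With each of the 12 samples omitted in turn, Elk4 lost this call in 9 fits. Ptx3 lost it in 5 and with total counts as the scale.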

How the results depend on the processing

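None of the 33 genes taken by the naming rule changed sign under the alternatives run; other genes in the text were not followed in this way. Of the values of these 33 under the alternatives, 380 kept their side of the threshold and 180 lost the call. The number of called genes was 542 with DESeq2 (61.6% of them higher, against 71.8% in edgeR), 22 in 1 model of all 12 samples, 220 with no low-count filter, 131 with summed Y-linked RNA as a covariate and 1 with summed erythroid RNA as a covariate. Genotype accounted for 74.4% of the variance of that erythroid covariate, so the fit removes much of the genotype contrast itself; 841 genes then had an unadjusted p under 0.05. Leaving out 1 replicate gave 5 to 94 calls, and 15 of the 71 genes kept the call in 0 of those 6 fits. The RLE scaling gave 71, total counts 92, limma-voom 69, the skeletal muscle covariate 68, halved counts 76 and a minimum count of 50 gave 86. No paired analysis was possible because the genotypes share no replicate numbers. The low genes Deptor and Tubb1 had wild type means of 0.615 and 0.517 CPM, near the filter. Whether depth limits such genes was not tested.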

Other observations

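The genes in this part were picked after their values were seen. Several regulators of early blood cells were among the called genes outside the lists: Myb went from 10.2 ± 0.251 to 16.5 ± 1.10 CPM (SD, n = 3 each), log2 0.69 (adjusted p 0.0112), Ikzf1 from 18.3 ± 1.12 to 29.5 ± 2.13 CPM (SD, n = 3 each), log2 0.69 (adjusted p 0.0112), and Lmo2 from 18.5 ± 0.519 to 24.7 ± 0.111 CPM (SD, n = 3 each), log2 0.42 (adjusted p 0.0284). The stem cell factor receptor gene Kit had means of 11.3 CPM in the wild types and 16.2 CPM in the mutants, log2 0.52 (adjusted p 0.0431), and Hemgn, a nuclear protein of blood-forming cells, went from 24.0 ± 1.81 to 37.9 ± 2.70 CPM (SD, n = 3 each), log2 0.66 (adjusted p 0.0125). With each of the 6 samples omitted in turn, Myb, Ikzf1 and Hemgn kept the call in 4 fits, Lmo2 in 1 and Kit in 0, and limma-voom did not call Kit (adjusted p 0.0603). In all 5 the C57BL/6 estimate had the opposite sign, from -2.26 for Hemgn to -0.95 and -0.95 for Lmo2 and Kit. The proliferation marker Mki67 went from 133 ± 13.6 to 184 ± 4.60 CPM (SD, n = 3 each), log2 0.46 (adjusted p 0.0372), and kept the call in 2 of those fits.

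Among the called lower genes outside the lists, Col8a2, the partner chain of Col8a1, went from 539.7 ± 16.7 to 387 ± 34.0 CPM (SD, n = 3 each), log2 -0.48 (adjusted p 0.0274). Cyp26b1, which breaks down retinoic acid and is linked to skull and suture development, went from 53.5 ± 2.99 to 38.2 ± 3.31 CPM (SD, n = 3 each), log2 -0.49 (adjusted p 0.0313). Cxcr7, a scavenging chemokine receptor, went from 73.8 ± 4.70 to 57.3 ± 0.937 CPM (SD, n = 3 each), log2 -0.36 (adjusted p 0.0372). Col8a2 kept the call in 2 of the 6 fits that omitted a sample, and Cyp26b1 and Cxcr7 in 1 each. Nppc, the C-type natriuretic peptide gene, stood at 2.03, 2.10 and 2.63 CPM in the wild types and 4.20, 2.93 and 6.37 CPM in the mutants, with ranges that did not overlap. It was not called by edgeR (log2 0.99, adjusted p 0.144) or limma-voom (adjusted p 0.226), while DESeq2 called it higher (adjusted p 0.0214).

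In the authors' deposited table for the same comparison, 228 genes had q under 0.05, 181 of them higher in mutants. Of the 71 genes called here, 70 had a q in the authors' deposited table, all 70 with the same sign and 43 with q under 0.05.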
